A study of Homo sapiens with 12 samples.

Results

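The core of the RAS-ERK pathway was followed at the RNA level through 7 listed genes, which were the RAS GTPases HRAS and NRAS, the RAF kinases ARAF and BRAF, the MEK kinases MAP2K1 and MAP2K2, and the ERK kinase MAPK3. All probe sets whose gene symbol in the array's annotation was one of these names were taken, whatever their values. This gave 8 of the 54675 probe sets, for 5 of the 7 listed genes and of the 19775 genes that had a probe set of a single symbol. MAP2K2 had 3 probe sets, ARAF had 2, and HRAS, MAP2K1 and MAPK3 had 1 each. The annotation used here named no probe set for NRAS or BRAF, so their values were not analysed here.

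RAS proteins are small GTPases at the inner face of the plasma membrane that switch between a resting state bound to GDP and an active state bound to GTP. Active RAS recruits RAF kinases, which phosphorylate the dual-specificity kinases MEK1 (MAP2K1) and MEK2 (MAP2K2), and these phosphorylate ERK1 (MAPK3) and its close relative, which then act on cytoplasmic and nuclear substrates. The cascade carries growth factor signals in the intestinal epithelium and is often activated by mutation in colorectal cancer. Its output is set largely by phosphorylation and nucleotide exchange, which RNA arrays do not measure.

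The study asked which transcripts follow oncogenic RAS activity in HCT116, a human colorectal cancer cell line that carries an oncogenic RAS allele. RNA was hybridised to Affymetrix arrays in 4 groups of 3 arrays. These were HCT116 control cells with 25 ng/ml doxycycline for 3 days, HCT116 control cells with vehicle for 3 days, and Hke3 and Hkh-2, isogenic lines in which homologous recombination at that allele left the wild-type form and which were described as in basal culture. Each recombined line is 1 clone. The methods speak of the mutant allele as deleted, whereas a supplement speaks of it as replaced, and the methods list a parental HCT116 culture without settling whether the control arrays are that culture. Every difference from HCT116 below is therefore a difference from the control arrays, which also differ from Hke3 and Hkh-2 in having gone through a treatment schedule. All conditions were stated to be in triplicate, but no source says whether separate cultures lie behind the 3 arrays of each group. The p-values thus rest on array-to-array spread, part or all of which may be technical.

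To show the regulatory sequence from which the members start, promoter windows of 300 bases, 250 before and 50 after the RefSeq start of each gene on GRCh38.p14, were read on the gene's strand. All 7 listed genes had an entry, and for MAP2K1 and MAP2K2, which had 2, the first is used. The windows below are those of HRAS (chr11:535527-535826, minus strand), MAP2K2 (chr19:4124073-4124372, minus strand) and ARAF (chrX:47560955-47561254, plus strand), whose main probe sets varied together over the arrays, and of MAP2K1 (chr15:66386662-66386961, plus strand), whose probe set did not vary with them. Capitals mark the GC box, searched as GGGCGG on both strands, so that CCGCCC is the same motif on the other strand.
HRAS: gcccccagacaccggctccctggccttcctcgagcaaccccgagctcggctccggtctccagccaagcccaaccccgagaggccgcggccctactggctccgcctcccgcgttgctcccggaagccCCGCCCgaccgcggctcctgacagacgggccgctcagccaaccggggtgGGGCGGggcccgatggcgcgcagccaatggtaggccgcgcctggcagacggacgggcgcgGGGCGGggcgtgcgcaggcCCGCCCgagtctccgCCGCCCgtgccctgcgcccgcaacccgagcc
MAP2K2: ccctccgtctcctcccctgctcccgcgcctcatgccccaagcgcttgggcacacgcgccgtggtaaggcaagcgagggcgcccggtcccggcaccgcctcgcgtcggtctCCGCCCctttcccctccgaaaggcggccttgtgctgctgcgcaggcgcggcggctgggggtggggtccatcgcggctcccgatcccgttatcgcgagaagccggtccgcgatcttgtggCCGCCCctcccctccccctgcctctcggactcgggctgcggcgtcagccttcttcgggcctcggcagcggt
ARAF: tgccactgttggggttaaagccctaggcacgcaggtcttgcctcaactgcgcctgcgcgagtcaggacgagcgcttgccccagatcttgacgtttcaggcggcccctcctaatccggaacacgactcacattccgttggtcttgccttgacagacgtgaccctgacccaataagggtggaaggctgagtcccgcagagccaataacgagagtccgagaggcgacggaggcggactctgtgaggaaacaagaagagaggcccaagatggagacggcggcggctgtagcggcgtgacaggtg
MAP2K1: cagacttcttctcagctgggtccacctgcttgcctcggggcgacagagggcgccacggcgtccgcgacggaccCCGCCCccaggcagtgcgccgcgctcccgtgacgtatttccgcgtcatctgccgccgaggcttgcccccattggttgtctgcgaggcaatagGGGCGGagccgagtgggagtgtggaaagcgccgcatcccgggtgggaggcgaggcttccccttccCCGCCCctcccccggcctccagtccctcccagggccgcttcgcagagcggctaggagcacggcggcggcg

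HRAS held 5 GC boxes and MAP2K1 held 3. The MAP2K2 window held 2, and the ARAF window held 0. The MAPK3 window, which is not printed, held 8. The motif was present in 45.0% of the 35116 promoter windows of the same length. The GC content was 78.0% for HRAS, 73.7% for MAP2K2, 60.3% for ARAF and 72.0% for MAP2K1, against a median of 58.7% over all windows. These matches describe letters in a window and do not show that a factor binds there.

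Values are on the log2 scale of RMA (robust multi-array average), which subtracts background, brings all arrays to 1 distribution and summarises the probes of a probe set. A difference of 1 is a doubling, each probe set has its own sensitivity, and levels are compared only between arrays of the same probe set. Array medians lay between 5.80 and 5.86, and the lowest correlation of an array with another of its group lay between 0.993 and 0.997. All 10 colon epithelial markers (EPCAM, CDH1, KRT8, KRT18, KRT19, KRT20, VIL1, CDX1, CDX2 and CLDN4) had a group mean of 6 or more in every group, with means of 6.45 to 14.5. Of 9 markers of blood, endothelium and fibroblasts, 3 were under 6 in every group, namely PTPRC (3.80 to 3.94), CD14 and CDH5. The 5 at 6 or more in every group were COL1A1 (8.19 to 8.43), CD79A (7.68 to 7.92), PECAM1 (6.56 to 6.86), CD3E (6.04 to 6.18) and DCN (6.01 to 6.21). COL3A1 stood at 6.73 in Hkh-2 and at 4.45 to 4.49 elsewhere. A group mean of 6 thus does not by itself show that a gene is expressed in these cells. A probe set was tested with limma where at least 1 group mean reached 6, and p-values were adjusted by the Benjamini-Hochberg method over the 27344 probe sets that passed. Of the 8 member probe sets 7 passed, and the number of arrays limits the precision.

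In 2 of the 4 groups, 1 array deviated clearly from its companions, namely vehicle replicate 2 and Hke3 replicate 3. Of the 27344 probe sets, 6.20% in vehicle replicate 2 and 10.6% in Hke3 replicate 3 differed by more than 0.5, in either direction, from the mean of the other 2 arrays of the group, compared with 0.399% to 2.17% in the other 10 arrays. The deviations of these arrays from their groups correlated with each other (r = 0.672 over probe sets, a description only, since probe sets are no replicates). HRAS was 0.82 above the other vehicle arrays in vehicle replicate 2, more than 99.6% of all probe sets, and 1.00 above the other Hke3 arrays in Hke3 replicate 3, more than 99.9% of them. MAP2K2 was likewise 1.00 above the others in vehicle replicate 2 and 0.96 above them in Hke3 replicate 3 (202424_at). HRAS and both tested MAP2K2 probe sets were thus among the probe sets that set these 2 arrays apart, and the comparisons between lines are given over all 12 arrays and over the 10 others. Because the 2 arrays were left out for values that include these genes, the narrower errors over 10 arrays follow in part from that choice.

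**Figure D1:**
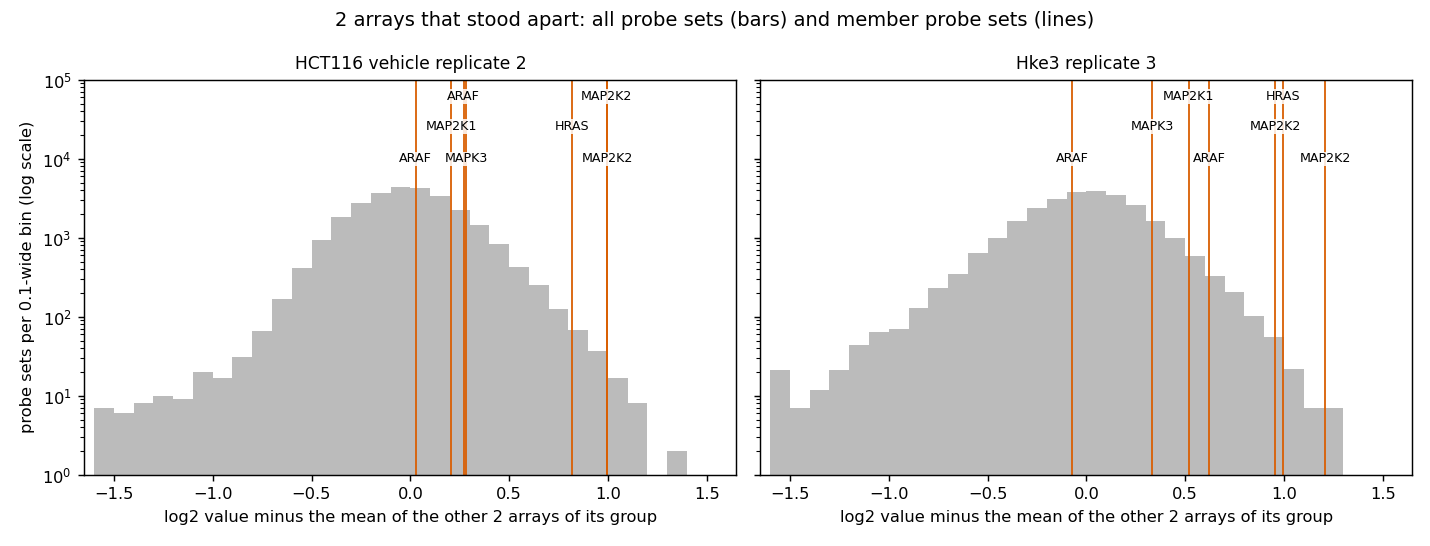
Histogram of the log2 value of each of 27344 probe sets in vehicle replicate 2 (left) and Hke3 replicate 3 (right) minus the mean of the other 2 arrays of its group, with the count per bin on a log axis and values beyond the ends pooled in the outermost bars. The orange lines mark the 7 tested member probe sets, of which HRAS and both MAP2K2 probe sets lie at the right edge in both arrays, between 0.82 and 1.21.

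The 2 arrays also stood out in control measures of the labelled RNA, and vehicle replicate 2 in a hybridisation control. The difference between the 5′ and 3′ control probe sets of actin, which reflects how complete the labelled RNA is, was -0.48 in vehicle replicate 2 and -0.23 in Hke3 replicate 3, the values nearest 0 in their groups. It ranged over -0.94 to -0.71 in doxycycline arrays, -0.85 to -0.48 in vehicle arrays, -0.58 to -0.23 in Hke3 arrays and -0.32 to -0.23 in Hkh-2 arrays. The same difference for GAPDH was also lowest within its group in these arrays, at -0.030 in vehicle replicate 2 and 0.0016 in Hke3 replicate 3. Its range was 0.011 to 0.083 in doxycycline arrays, -0.030 to 0.091 in vehicle arrays, 0.0016 to 0.11 in Hke3 arrays and -0.033 to 0.015 in Hkh-2 arrays. The hybridisation control bioC averaged 8.57 in vehicle replicate 2 and 9.68 to 10.35 in the other 11 arrays. The part of these measures in the differences between groups was not tested.

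**Figure D2:**
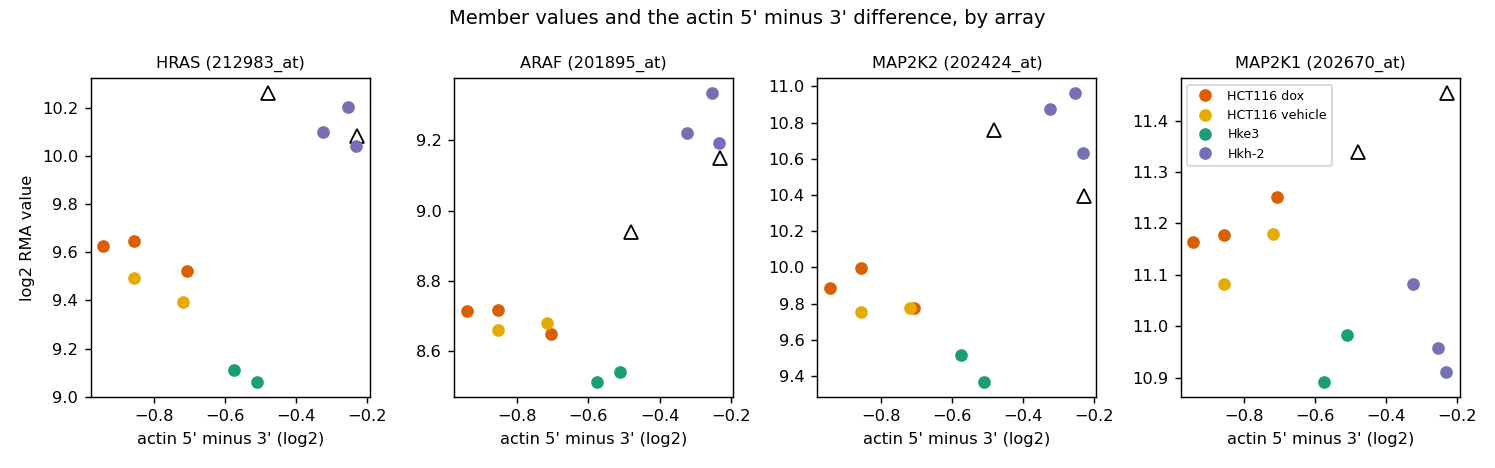
Log2 RMA values of HRAS, ARAF (201895_at), MAP2K2 (202424_at) and MAP2K1 (vertical axes) against the log2 difference between the 5′ and 3′ actin control probe sets (horizontal axes) in 12 arrays, coloured by group, with vehicle replicate 2 and Hke3 replicate 3 as open triangles. In the HRAS, ARAF and MAP2K2 panels the triangles stand above the other arrays of their groups and toward Hkh-2, whose actin differences are -0.32 to -0.23.

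Among the RAS GTPases, the values rest on HRAS, which is farnesylated and palmitoylated to reach the membrane. The HRAS probe set (212983_at, chromosome 11) read 9.63, 9.64 and 9.52 in doxycycline arrays, 9.49, 10.26 and 9.39 in vehicle arrays, 9.11, 9.06 and 10.08 in Hke3, and 10.10, 10.20 and 10.04 in Hkh-2. The 3 Hkh-2 arrays lay above every doxycycline array, and the only values near them in the other groups were vehicle replicate 2 and Hke3 replicate 3. Group means were 9.60 ± 0.067 in doxycycline arrays, 9.72 ± 0.48 in vehicle arrays, 9.42 ± 0.58 in Hke3 and 10.11 ± 0.082 in Hkh-2 (SD, n = 3 each).

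HRAS was lower in Hke3 than in Hkh-2 by limma (log2 difference -0.70, SE 0.25, adjusted p = 0.0478), although the arrays of both lines overlapped. The call was lost without any 1 of the 3 Hkh-2 arrays, with adjusted p of 0.0822 to 0.127, without Hke3 replicate 1 (0.175) or replicate 2 (0.189), without vehicle replicate 1 (0.0543) and without any 1 doxycycline array (0.061 to 0.0628). HCT116 vehicle minus Hkh-2 was -0.40 (95% confidence interval -0.95 to 0.15, adjusted p = 0.249) and HCT116 vehicle minus Hke3 was 0.30 (interval -0.25 to 0.85, adjusted p = 0.358), so neither difference exceeded the spread between arrays. Single arrays decided these too, since HRAS was lower in HCT116 vehicle than in Hkh-2 without vehicle replicate 2 (-0.67, adjusted p = 0.0421) and higher in HCT116 vehicle than in Hke3 without Hke3 replicate 3 (0.63, adjusted p = 0.0169). In the order of the means, Hkh-2, vehicle, doxycycline and Hke3, no neighbours differed beyond their spread. Over the 10 other arrays HRAS was higher in HCT116 vehicle than in Hke3 (0.36, SE 0.080, adjusted p = 0.0037), lower in HCT116 vehicle than in Hkh-2 (-0.67, adjusted p = 3.12e-05) and lower in Hke3 than in Hkh-2 (-1.03, adjusted p = 1.33e-06). In such bulk samples fewer cells that express a gene and less RNA per cell cannot be told apart.

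The RAF kinases were represented by ARAF, an X-linked gene whose product is the RAF family member with the lowest kinase activity. Its 2 probe sets went opposite ways between the recombined lines. The probe set 201895_at read 8.71, 8.72 and 8.65 in doxycycline arrays, 8.66, 8.94 and 8.68 in vehicle arrays, 8.51, 8.54 and 9.15 in Hke3, and 9.22, 9.34 and 9.19 in Hkh-2. Every Hkh-2 array was above every array of the other groups, and Hke3 replicate 3 came within 0.1 of them. ARAF was lower in HCT116 vehicle than in Hkh-2 (-0.49, SE 0.14, adjusted p = 0.0183) and lower in Hke3 than in Hkh-2 (-0.52, SE 0.14, adjusted p = 0.0144). HCT116 vehicle and Hke3 did not differ beyond the spread (0.026, interval -0.29 to 0.34, adjusted p = 0.896). In the order of the means, Hkh-2, vehicle, Hke3 and doxycycline, only the step below Hkh-2 passed the test.

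Single arrays decided the calls for 201895_at. The difference of HCT116 vehicle from Hkh-2 lost its call without vehicle replicate 1 (adjusted p = 0.0673), without vehicle replicate 3 (0.059) and without Hkh-2 replicate 2 (0.0662). The difference of Hke3 from Hkh-2 lost it without Hke3 replicate 1 (0.069) or replicate 2 (0.0688) and without Hkh-2 replicate 2 (0.0564). Both were larger over the 10 other arrays, at -0.58 for HCT116 vehicle minus Hkh-2 (adjusted p = 4.21e-05) and -0.72 for Hke3 minus Hkh-2 (adjusted p = 7.22e-06). HCT116 vehicle minus Hke3 was then 0.14 (adjusted p = 0.122).

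The second ARAF probe set, 230652_at, lay near the level filter. It read 5.71, 5.51 and 5.67 in doxycycline arrays, 6.03, 5.84 and 5.60 in vehicle arrays, 6.67, 6.82 and 6.67 in Hke3, and 6.01, 5.85 and 5.97 in Hkh-2. Hke3 alone stood above 6.5 in all 3 arrays, and the other groups overlapped with one another except for doxycycline arrays, which lay below every Hkh-2 array. It was lower in HCT116 vehicle than in Hke3 (-0.90, SE 0.11, adjusted p = 2.53e-05) and higher in Hke3 than in Hkh-2 (0.78, SE 0.11, adjusted p = 0.000122), with no overlap of arrays in either comparison. Counting group means under 6 as 6, which is the level below which a signal was treated as dim, left -0.72 and 0.72. This probe set passed the filter only through Hke3, where it was high. Vehicle replicate 2 and Hke3 replicate 3 did not stand apart in it, and without them the differences were -0.93 and 0.80 (adjusted p = 0.000177 and 0.000206).

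Of the MEK kinases, MAP2K2, which encodes MEK2, had the largest log2 differences of the 7 tested member probe sets between Hke3 and Hkh-2, while MAP2K1, which encodes MEK1, passed the test in no comparison over 12 arrays. The MAP2K2 probe set 202424_at (chromosome 19) read 9.89, 10.00 and 9.78 in doxycycline arrays, 9.75, 10.76 and 9.77 in vehicle arrays, 9.51, 9.36 and 10.40 in Hke3, and 10.87, 10.96 and 10.63 in Hkh-2. Hkh-2 was above every Hke3 and doxycycline array, and vehicle replicate 2 fell within its range. Means were 9.89 ± 0.11 in doxycycline arrays, 10.10 ± 0.58 in vehicle arrays, 9.76 ± 0.56 in Hke3 and 10.82 ± 0.17 in Hkh-2 (SD, n = 3 each).

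By limma, 202424_at was lower in Hke3 than in Hkh-2 (-1.06, SE 0.28, adjusted p = 0.00972). HCT116 vehicle minus Hkh-2 was -0.73 (interval -1.33 to -0.13, adjusted p = 0.0576), just outside the threshold of 0.05, and HCT116 vehicle minus Hke3 was 0.34 (interval -0.26 to 0.94, adjusted p = 0.341). Without vehicle replicate 2 the difference of HCT116 vehicle from Hkh-2 was -1.06 (adjusted p = 0.00437), and without Hke3 replicate 3 the same difference passed (-0.73, adjusted p = 0.0169), as did that of HCT116 vehicle from Hke3 (0.66, adjusted p = 0.0371). The difference of Hke3 from Hkh-2 kept its call without any 1 array. Over the 10 other arrays it was lower in HCT116 vehicle than in Hkh-2 (-1.06, adjusted p = 1.32e-05), lower in Hke3 than in Hkh-2 (-1.38, adjusted p = 1.76e-06) and higher in HCT116 vehicle than in Hke3 (0.32, adjusted p = 0.0341).

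A second MAP2K2 probe set, 213490_s_at, whose name marks probes that can bind more than 1 transcript, gave a like pattern. It read 7.64, 7.82 and 7.81 in doxycycline arrays, 7.71, 8.71 and 7.73 in vehicle arrays, 7.69, 7.37 and 8.74 in Hke3, and 9.26, 9.38 and 9.04 in Hkh-2. Every Hkh-2 array was above every other array, and vehicle replicate 2 and Hke3 replicate 3 came next. It was lower in HCT116 vehicle than in Hkh-2 (-1.18, SE 0.31, adjusted p = 0.0103) and lower in Hke3 than in Hkh-2 (-1.29, SE 0.31, adjusted p = 0.00638), and both calls held without any 1 array. HCT116 vehicle minus Hke3 was 0.12 (adjusted p = 0.786). With the 2 arrays left out, HCT116 vehicle minus Hkh-2 was -1.51 (adjusted p = 2.25e-06), Hke3 minus Hkh-2 was -1.70 (adjusted p = 9.54e-07) and HCT116 vehicle minus Hke3 was 0.19 (adjusted p = 0.244). The third MAP2K2 probe set, 213487_at, read 5.39 to 5.90 over all 12 arrays, was under the filter in every group and was not tested.

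MAP2K1 (202670_at, chromosome 15) read 11.16, 11.18 and 11.25 in doxycycline arrays, 11.08, 11.34 and 11.18 in vehicle arrays, 10.89, 10.98 and 11.45 in Hke3, and 11.08, 10.96 and 10.91 in Hkh-2. The highest Hke3 and vehicle values were again Hke3 replicate 3 and vehicle replicate 2, by 0.52 and 0.21 over the others of their groups, and the groups overlapped except that doxycycline arrays lay above Hkh-2. HCT116 vehicle minus Hke3 was 0.091 (interval -0.18 to 0.37, adjusted p = 0.585), HCT116 vehicle minus Hkh-2 was 0.22 (interval -0.059 to 0.49, adjusted p = 0.211) and Hke3 minus Hkh-2 was 0.13 (interval -0.15 to 0.40, adjusted p = 0.478). Without Hke3 replicate 3 alone, MAP2K1 was higher in HCT116 vehicle than in Hke3 (0.26, adjusted p = 0.0286) and than in Hkh-2 (0.22, adjusted p = 0.0496). Over the 10 other arrays neither passed, at 0.19 (adjusted p = 0.0677) and 0.15 (adjusted p = 0.13), and Hke3 minus Hkh-2 was -0.047 (adjusted p = 0.624).

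To ask whether the MEK genes changed unequally, the log2 value of MAP2K2 (202424_at) was subtracted from that of MAP2K1 within each array. This difference was 1.28, 1.18 and 1.47 in doxycycline arrays, 1.33, 0.58 and 1.41 in vehicle arrays, 1.38, 1.62 and 1.06 in Hke3, and 0.21, -0.0072 and 0.28 in Hkh-2. The 3 Hkh-2 arrays lay below all 9 others. The change was 0.94 for HCT116 vehicle minus Hkh-2 and 1.19 for Hke3 minus Hkh-2, each with the smallest two-sided p that an exact permutation test of 3 against 3 arrays allows (p = 0.1, adjusted p = 0.2 over 4 comparisons). It was -0.25 for HCT116 vehicle minus Hke3 (exact p = 0.6, adjusted 0.7) and 0.20 for doxycycline minus vehicle (exact p = 0.7, adjusted 0.7). Without the 2 arrays the changes against Hkh-2 were 1.21 for HCT116 vehicle and 1.34 for Hke3. The corresponding differences of HRAS from NRAS and of ARAF from BRAF were not analysed here.

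MAPK3, which encodes ERK1, was measured by 212046_x_at on chromosome 16, a probe set whose name marks probes that can bind other transcripts. It read 9.08, 9.07 and 8.96 in doxycycline arrays, 9.11, 9.29 and 8.91 in vehicle arrays, 8.76, 8.99 and 9.21 in Hke3, and 9.09, 9.27 and 9.25 in Hkh-2. All 12 arrays lay within 0.53 of one another, and the groups overlapped, except that the lowest Hkh-2 array was just above the highest doxycycline array. HCT116 vehicle minus Hke3 was 0.12 (interval -0.14 to 0.38, adjusted p = 0.447), HCT116 vehicle minus Hkh-2 was -0.10 (interval -0.36 to 0.16, adjusted p = 0.55) and Hke3 minus Hkh-2 was -0.22 (interval -0.48 to 0.040, adjusted p = 0.174). Without the 2 arrays MAPK3 was lower in Hke3 than in Hkh-2 (-0.33, adjusted p = 0.0125), and likewise without Hke3 replicate 3 alone (adjusted p = 0.0324). Over those 10 arrays HCT116 vehicle minus Hke3 was 0.13 (adjusted p = 0.306) and HCT116 vehicle minus Hkh-2 was -0.20 (adjusted p = 0.116).

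**Figure D3:**
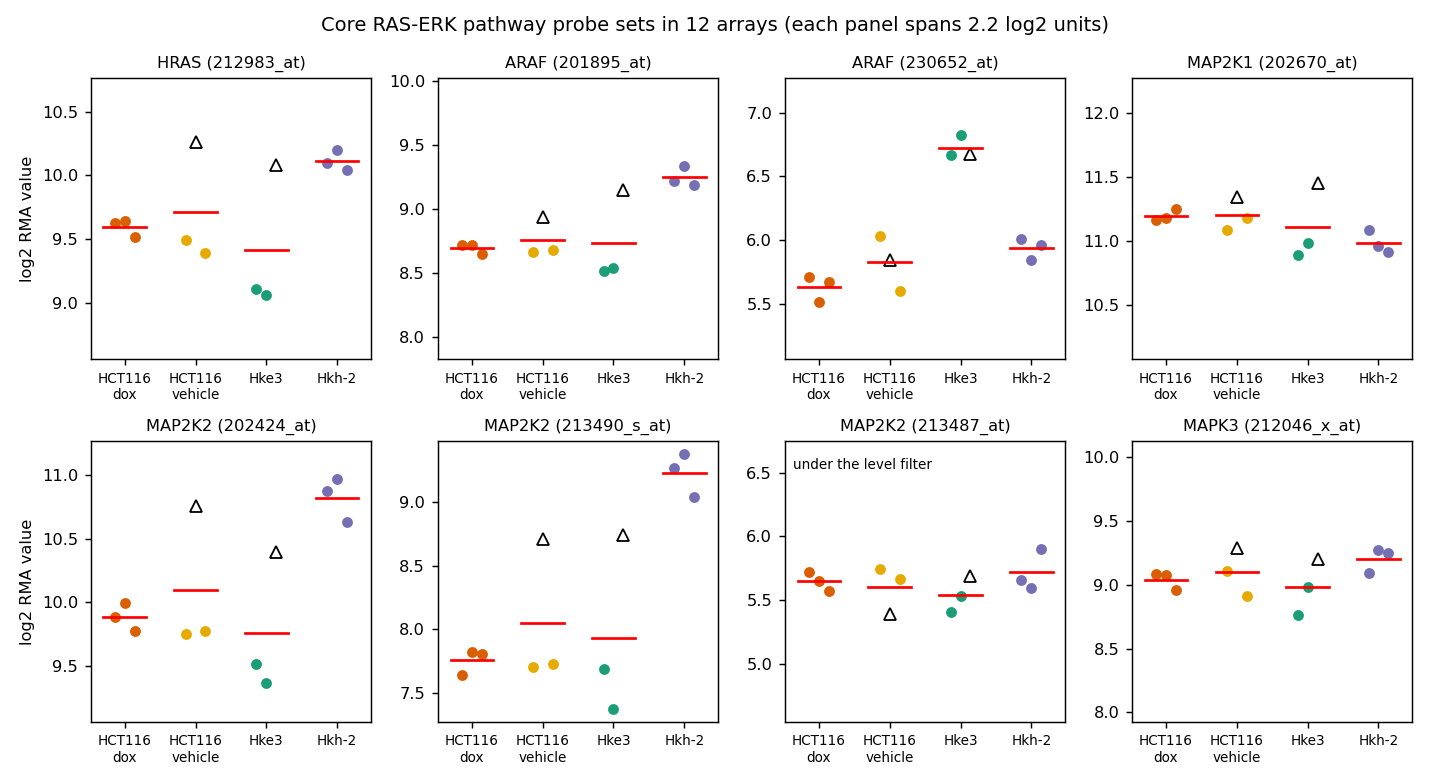
Log2 RMA values (vertical axes, each spanning 2.2 units) of the 8 member probe sets in 12 arrays, grouped along the horizontal axes as HCT116 with doxycycline, HCT116 with vehicle, Hke3 and Hkh-2, with red bars at the group means and open triangles for vehicle replicate 2 and Hke3 replicate 3. In HRAS, ARAF 201895_at and both tested MAP2K2 probe sets the Hkh-2 arrays are high and the triangles approach them, whereas ARAF 230652_at is high in Hke3 alone, at 6.67 to 6.82.

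Counted over the 7 tested member probe sets, 1 differed between HCT116 vehicle and Hke3 at an adjusted p under 0.05 (ARAF 230652_at, lower in HCT116 vehicle), where 44.8% of all probe sets tested did and 21.4% were lower. Between HCT116 vehicle and Hkh-2, 2 differed (ARAF 201895_at and MAP2K2 213490_s_at, both lower in HCT116 vehicle), where 35.6% of all did and 18.6% were lower. Between Hke3 and Hkh-2, 5 differed, 1 higher and 4 lower in Hke3, where 36% of all did, 17.1% higher and 18.9% lower. The first 2 counts were below what the background share gives for 7 probe sets and the third was above it, and with so few probe sets none of this sets the core genes apart. Without vehicle replicate 2 and Hke3 replicate 3 these counts were 3, 4 and 6, beside background shares of 49.7%, 45.3% and 52.6%. The arrays of both groups did not overlap for 1, 2 and 4 of the 7 in these comparisons, where 48.3%, 48.9% and 45.3% of all probe sets did not overlap. ARAF 230652_at passed the level filter only through Hke3, with a mean of 6.72 there and 5.63 to 5.94 in the other groups. Over all arrays, the count for HCT116 vehicle and Hke3 and the 1 higher in Hke3 than in Hkh-2 rest on it alone. With a group mean of at least 7 the counts over all arrays were 0, 2 and 4.

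**Figure D4:**
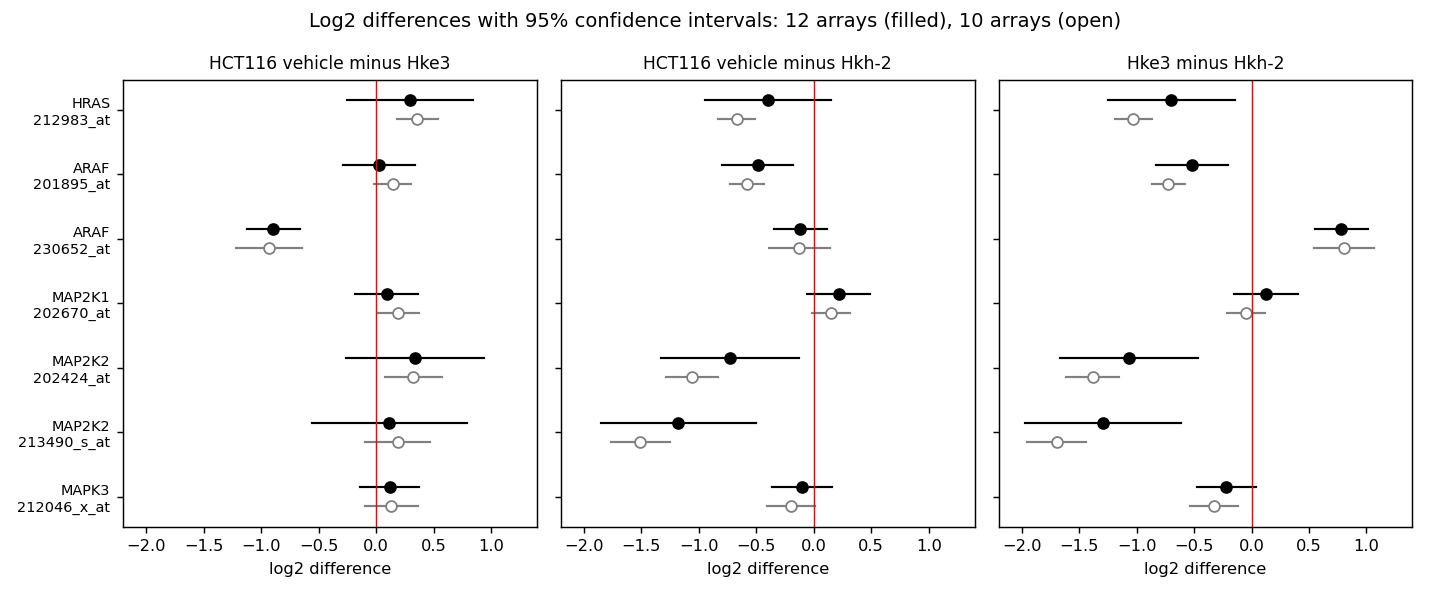
Log2 differences with 95% confidence intervals (horizontal axes) of the 7 tested member probe sets (rows) for HCT116 vehicle minus Hke3, HCT116 vehicle minus Hkh-2 and Hke3 minus Hkh-2, over all 12 arrays (filled points) and over 10 arrays without vehicle replicate 2 and Hke3 replicate 3 (open points). Intervals are narrower over 10 arrays except for ARAF 230652_at, whose intervals are wider, and the differences of HRAS and MAP2K2 from Hkh-2 lie below 0 in all open points.

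Doxycycline alone, at 25 ng/ml for 3 days in HCT116 control cells, was followed by no called difference in any member, with 0 of 7 called and 0% of all 27344 probe sets. The arrays of both groups overlapped in all 7, where 4.88% of all probe sets did not overlap. The adjusted p of limma was 1 for every probe set, and 382 probe sets had an unadjusted p under 0.05. This is a smaller share of the 27344 than that threshold gives on average where no probe set differs. The spread in the fit is shared by all 4 groups, so it includes vehicle replicate 2 and Hke3 replicate 3, although Hke3 is not compared here. Doxycycline minus vehicle was -0.12 for HRAS (interval -0.67 to 0.43), -0.067 for ARAF 201895_at (interval -0.38 to 0.25) and -0.0037 for MAP2K1 (interval -0.28 to 0.27). It was -0.21 for MAP2K2 202424_at (interval -0.81 to 0.39), -0.29 for MAP2K2 213490_s_at (interval -0.97 to 0.39) and -0.064 for MAPK3 (interval -0.32 to 0.19). ARAF 230652_at had both group means under 6 and is given no difference. The intervals of HRAS and MAP2K2 reached changes of over 0.6 in size. Without vehicle replicate 2 and Hke3 replicate 3, the differences were 0.15 for HRAS (interval -0.0088 to 0.32) and 0.12 for MAP2K2 202424_at (interval -0.10 to 0.35), each with an adjusted p of 1. They were 0.023 for ARAF 201895_at, 0.065 for MAP2K1, 0.041 for MAP2K2 213490_s_at and 0.030 for MAPK3, also with an adjusted p of 1.

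Because the doxycycline arrays held no array that stood apart, they were also set against the recombined lines in place of the vehicle arrays, a comparison chosen after the data were seen. Against Hkh-2, doxycycline arrays were lower in ARAF 201895_at (-0.56, adjusted p = 0.00903), MAP2K2 202424_at (-0.93, adjusted p = 0.0184) and MAP2K2 213490_s_at (-1.47, adjusted p = 0.00262). ARAF 230652_at also passed the test, but both of its group means were under 6, so no difference is given for it. The 4 of 7 that passed, with this one included, stood beside 36.3% of all probe sets called and 19.1% lower. HRAS (-0.52, adjusted p = 0.133), MAPK3 (-0.17, adjusted p = 0.31) and MAP2K1 (0.21, adjusted p = 0.218) did not pass. Against Hke3, only ARAF 230652_at passed (-1.09, adjusted p = 4.75e-06), 1 of 7 beside 42.6% of all probe sets called and 20.8% lower. It had passed the filter only through Hke3, and its doxycycline mean was under 6.

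The shared part of the members' variation was described by correlation over the 12 arrays, which fall into 4 groups and include the 2 that stood apart, so no p is given. With 1 probe set per gene, that of the highest mean, r was 0.966 between HRAS and MAP2K2, 0.944 between ARAF and MAP2K2 and 0.904 between HRAS and ARAF. MAPK3 followed with r of 0.874 with HRAS, 0.801 with MAP2K2 and 0.775 with ARAF. MAP2K1 stood outside this group, with r of 0.058 to 0.332 with the other 4. Over the 10 arrays without vehicle replicate 2 and Hke3 replicate 3, r was 0.975 between HRAS and MAP2K2, 0.987 between ARAF and MAP2K2 and 0.953 between HRAS and ARAF, and MAP2K1 had r of -0.295 to -0.0622 with the other 4. Of the 27344 probe sets, 463 lay more than 0.5 above the others of their group in both vehicle replicate 2 and Hke3 replicate 3. Among them were 3 of the 7 tested member probe sets (HRAS and both tested MAP2K2 probe sets). Of these 463, 79.7% had a higher mean in Hkh-2 than in doxycycline arrays (median difference 0.292), whereas 48.8% of all probe sets tested did (median -0.008), and neither group holds the 2 arrays. The 463 were picked by the values of the 2 arrays and in the upward direction only. Probe sets are no replicates, and the cause of this likeness was not tested.

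The genes outside the core whose values over the 12 arrays were most like each member were searched among all tested probe sets with 1 symbol, over the 12 arrays only. They were INAFM1 (r = 0.99) and NPDC1 (r = 0.989) for HRAS, RAD9A (r = 0.989) and TRPM2 (r = 0.985) for ARAF, and RFNG (r = 0.992) and HSF1 (r = 0.985) for MAP2K2. RAD9A is a subunit of a DNA damage checkpoint clamp, RFNG a glycosyltransferase that modifies Notch, and HSF1 the main transcription factor of the heat shock response. MAPK3 was most like TEDC1 (r = 0.943) and COPS7B (r = 0.941), and MAP2K1 was most like TMEM59L (r = 0.934) and TNFRSF18 (r = 0.915).

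Around the core, 108 other genes of the pathway were listed in 7 roles, of which 97 were represented by a probe set and 85 passed the filter. HCT116 vehicle differed from Hke3 in 38 of the 85 (12 higher, 26 lower, median -0.116), from Hkh-2 in 31 (10 higher, 21 lower, median -0.092), and Hke3 differed from Hkh-2 in 34 (18 higher, 16 lower, median -0.013). The shares of 44.7%, 36.5% and 40% stood beside 44.8%, 35.6% and 36% of all probe sets, whose medians were 0.051, 0.013 and -0.034. This background holds every probe set, whereas each pathway gene has 1. With 1 probe set per gene, the calls over all genes in the same order were 3159 higher and 2987 lower, 1842 higher and 2785 lower, and 2100 higher and 3018 lower. These calls show the balance of directions only and give no share to set beside those of the pathway. Without vehicle replicate 2 and Hke3 replicate 3 the pathway counts were 49 (21 higher, 28 lower), 44 (12 higher, 32 lower) and 50 (25 higher, 25 lower), beside 49.7%, 45.3% and 52.6% of all probe sets. Of the calls over 12 arrays, 37 of 38, 29 of 31 and 33 of 34 were kept in the same direction over the 10 arrays, and these included all 18, 11 and 14 calls of the named genes, so the values of named genes that follow are over 12 arrays. The counts of single roles are descriptions beside the shares for all probe sets. No listed gene was called for doxycycline minus vehicle.

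Among 9 tested RAS family relatives, HCT116 vehicle was higher in 1 and lower in 4 against Hke3, where 44.8% of all probe sets were called and 21.4% were lower. Against Hkh-2 it was higher in 2 and lower in 2, where 35.6% of all were called. Hke3 was higher in 4 and lower in none against Hkh-2, where 36% of all were called, 17.1% higher and 18.9% lower. MRAS, a RAS relative that takes part in a phosphatase complex acting on RAF, averaged 8.23 in doxycycline arrays, 8.14 in vehicle arrays, 8.67 in Hke3 and 8.19 in Hkh-2, and was lower in HCT116 vehicle than in Hke3 (-0.53, adjusted p = 0.000259) and higher in Hke3 than in Hkh-2 (0.48, adjusted p = 0.000779). RAP1B, a small GTPase of cell adhesion, was lower in HCT116 vehicle than in Hke3 (-0.38, adjusted p = 0.00131) and than in Hkh-2 (-0.25, adjusted p = 0.0216). RHEB, the GTPase that activates mTORC1, was lower in HCT116 vehicle than in Hke3 (-0.31, adjusted p = 0.00206).

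Upstream of RAS, 6 of 10 receptor adaptors and exchange factors differed between HCT116 vehicle and Hke3 (2 higher, 4 lower), and 2 of 10 between HCT116 vehicle and Hkh-2, beside 44.8% and 35.6% of all probe sets. GAB1, a docking protein of receptor tyrosine kinases, averaged 5.68 in doxycycline arrays, 5.85 in vehicle arrays, 6.52 in Hke3 and 8.34 in Hkh-2. It was lower in HCT116 vehicle than in Hkh-2, with a bound of -2.34 when the vehicle mean, which was under 6, is counted as 6 (adjusted p of the fit = 4.6e-10), and lower in Hke3 than in Hkh-2 (-1.82, adjusted p = 1.23e-08). SOS2, an exchange factor that loads RAS with GTP, was lower in HCT116 vehicle than in Hke3 (-0.80, adjusted p = 0.000936) and higher in Hke3 than in Hkh-2 (0.63, adjusted p = 0.00613). PTPN11, the phosphatase SHP2 that acts between receptors and RAS, was lower in HCT116 vehicle than in Hke3 (-0.29, adjusted p = 0.0208).

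Of the RAS GTPase-activating proteins, which return RAS to its GDP state, 5 were tested and 2 were called in each of the 3 comparisons between lines, 1 in each direction, beside 44.8%, 35.6% and 36% of all probe sets. RASA3 was higher in HCT116 vehicle than in Hkh-2 (0.60, adjusted p = 5.66e-05) and higher in Hke3 than in Hkh-2 (0.42, adjusted p = 0.00108). RASAL1 was higher in HCT116 vehicle than in Hke3 (0.52, adjusted p = 0.00552), and RASAL2 was lower in HCT116 vehicle than in Hkh-2 (-0.44, adjusted p = 0.00801).

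Among 8 genes of RAS lipid modification and transport, 6 differed between Hke3 and Hkh-2, 1 higher and 5 lower in Hke3, and 4 between HCT116 vehicle and Hke3, beside 36% and 44.8% of all probe sets. Of all probe sets, 17.1% were higher and 18.9% lower in Hke3 than in Hkh-2. ZDHHC9, a palmitoyltransferase that acts on HRAS, was lower in HCT116 vehicle than in Hke3 (-0.46, adjusted p = 0.000386) and than in Hkh-2 (-0.39, adjusted p = 0.00151). PDE6D, a carrier of farnesylated RAS, was lower in HCT116 vehicle than in Hke3 (-0.51, adjusted p = 0.000578). LYPLA1, a thioesterase that removes palmitate, was lower in HCT116 vehicle than in Hkh-2 (-0.53, adjusted p = 0.000219) and lower in Hke3 than in Hkh-2 (-0.40, adjusted p = 0.00216).

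RAF regulators and MAPK scaffolds were the largest list, with 24 tested genes. HCT116 vehicle was higher in 2 and lower in 9 against Hke3, and higher in 4 and lower in 10 against Hkh-2, where 44.8% and 35.6% of all probe sets were called and 21.4% and 18.6% were lower. KSR2, a scaffold that holds RAF, MEK and ERK together, averaged 7.15 in doxycycline arrays, 7.28 in vehicle arrays, 6.10 in Hke3 and 6.05 in Hkh-2, and was higher in HCT116 vehicle than in both lines (1.18 against Hke3, adjusted p = 1.31e-05, and 1.23 against Hkh-2, adjusted p = 1.08e-05). The KSR2 means of both lines lay close to the level filter of 6, so signal near background limits these differences. The 14-3-3 proteins YWHAZ and YWHAG, which bind phosphorylated RAF, were lower in HCT116 vehicle than in Hke3 (-0.49, adjusted p = 0.000181, and -0.42, adjusted p = 0.000259). YWHAZ was also lower in HCT116 vehicle than in Hkh-2 (-0.30, adjusted p = 0.0066).

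The other MAP3K, MEK and MAPK genes, which serve mainly the JNK, p38 and ERK5 cascades, held larger single differences than the core for HCT116 vehicle minus Hke3. For HCT116 vehicle minus Hkh-2 the largest was 1.21 (MAP2K4), beside -1.18 for MAP2K2 213490_s_at, and over the 10 arrays 1.19 beside -1.51. For Hke3 minus Hkh-2 the core held the larger one, -1.29 for MAP2K2 213490_s_at beside -0.72 for MAP3K11. MAP3K1, a kinase upstream of JNK, averaged 7.80 in doxycycline arrays, 7.77 in vehicle arrays, 9.63 in Hke3 and 8.95 in Hkh-2. It was lower in HCT116 vehicle than in Hke3 (-1.86, adjusted p = 1.25e-06) and than in Hkh-2 (-1.19, adjusted p = 7.59e-05). MAP2K4, the MEK relative that activates JNK and p38, averaged 11.07 in doxycycline arrays, 11.06 in vehicle arrays, 9.75 in Hke3 and 9.85 in Hkh-2, and was higher in HCT116 vehicle than in Hke3 (1.30, adjusted p = 1.15e-07) and than in Hkh-2 (1.21, adjusted p = 2.51e-07). MAP3K3 was lower in HCT116 vehicle than in Hke3 (-0.64, adjusted p = 4.54e-05) and than in Hkh-2 (-0.45, adjusted p = 0.000752). In all, 6 of the 16 tested genes were called between HCT116 vehicle and Hke3 and 5 between HCT116 vehicle and Hkh-2, beside 44.8% and 35.6% of all probe sets. Over the 10 arrays these were 6 and 9.

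Among 13 tested ERK substrates, 9 differed between Hke3 and Hkh-2 (4 higher, 5 lower), 4 between HCT116 vehicle and Hke3, and 1 between HCT116 vehicle and Hkh-2, beside 36%, 44.8% and 35.6% of all probe sets. Over the 10 arrays these counts were 10, 9 and 4, beside 52.6%, 49.7% and 45.3%. MYC, a transcription factor that ERK phosphorylation stabilises, averaged 12.64 in doxycycline arrays, 12.64 in vehicle arrays, 11.39 in Hke3 and 12.71 in Hkh-2, and was higher in HCT116 vehicle than in Hke3 (1.25, adjusted p = 4.54e-08) and lower in Hke3 than in Hkh-2 (-1.32, adjusted p = 3.9e-08). RPS6KA5, the nuclear kinase MSK1, was higher in HCT116 vehicle than in Hke3 (1.55, adjusted p = 2.5e-06) and lower in Hke3 than in Hkh-2 (-1.33, adjusted p = 1.49e-05). STMN1, a microtubule-destabilising protein, was lower in HCT116 vehicle than in Hke3 (-0.45, adjusted p = 0.00023). HCT116 vehicle minus Hkh-2 was -0.067 for MYC (adjusted p = 0.517), 0.22 for RPS6KA5 (adjusted p = 0.258) and -0.059 for STMN1 (adjusted p = 0.554).

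**Figure D5:**
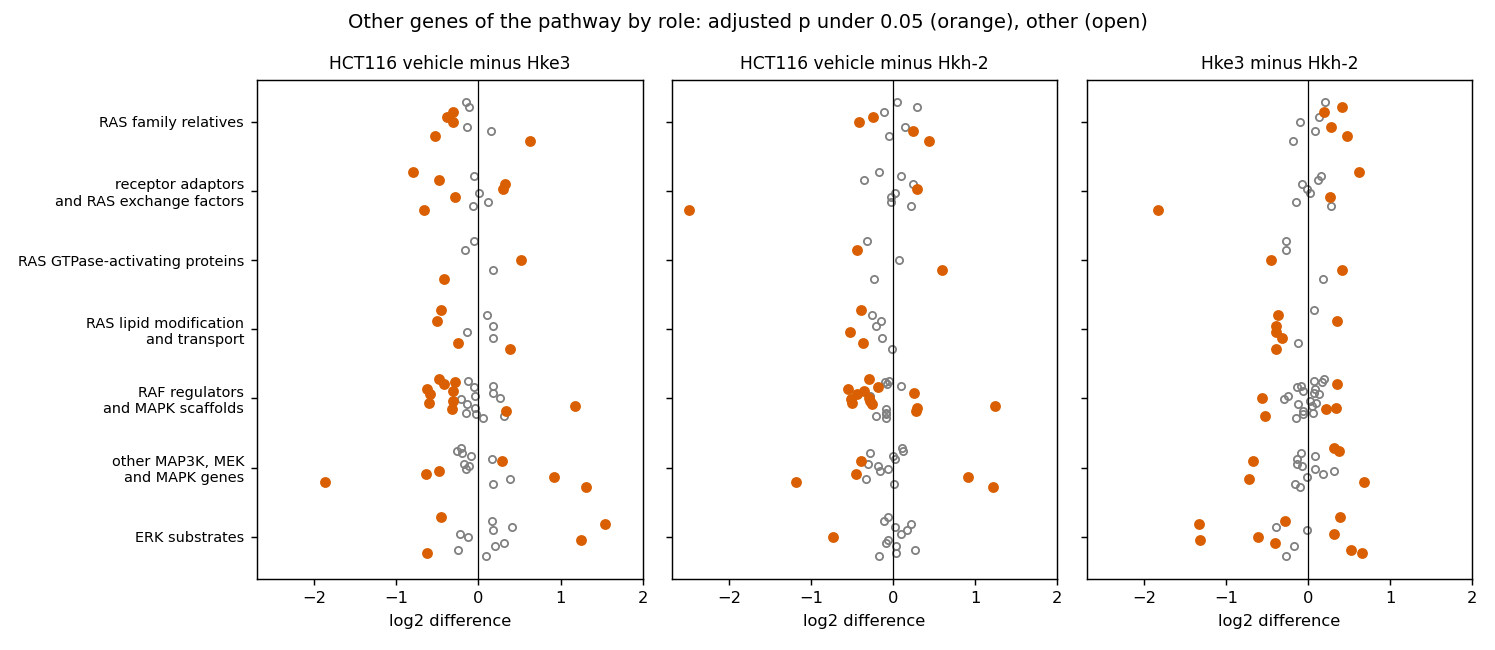
Log2 differences (horizontal axes) of 85 tested pathway genes outside the core, 1 point per gene, in rows by role, for HCT116 vehicle minus Hke3, HCT116 vehicle minus Hkh-2 and Hke3 minus Hkh-2, with genes at an adjusted p under 0.05 in orange and others open. Points lie on both sides of 0 in most rows, with MAP3K1 at -1.86 for HCT116 vehicle minus Hke3, and group means under 6, such as that of GAB1 in HCT116 vehicle, are plotted as measured.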

How the data were processed

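RNA of 12 arrays was analysed, 3 each of HCT116 control cells with doxycycline, HCT116 control cells with vehicle, Hke3 and Hkh-2. The log2 values, 1 for each array and probe set, are as deposited and were made with RMA per the labels. The RMA version and which arrays were normalised together are not given in the sources used here. Gene symbols came from the platform annotation (41097 probe sets with 1 symbol, 1801 with several, 11777 unnamed here), and 41043 probe sets were matched by gene ID to RefSeq (GRCh38.p14). The 62 control probe sets were left out of the tests. A model of 4 group means was fitted with limma (version 3.58.1, R 4.3.3) over the 12 arrays. Its estimate of the spread of a probe set was shared by the 4 groups. Adjustment by Benjamini-Hochberg ran over the 27344 probe sets with a mean of 6 or more in at least 1 group, a filter that follows the one stated for other cell lines. The sources name no test for these arrays. Pathway genes outside the core were represented by their probe set with the highest mean, and in each role up to 3 with the smallest p between lines were named. The fit was tested on simulated data.

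The members and gene lists were chosen with earlier results of these data known. Results for the gene altered by recombination are not reported here. The sample titles number the replicates but state no pairing between groups. Deviations of same-numbered vehicle and doxycycline arrays correlated at r = 0.177, 0.179 and 0.43. Those of vehicle and Hkh-2 arrays did so at -0.08, 0.401 and 0.329, and those of vehicle and Hke3 arrays at 0.349, -0.556 and -0.554. These values do not settle whether any arrays are paired, and the main fit used no replicate block. The alternatives were other filters, normalisations, fits and weights, a replicate block, 1 probe set per gene, other HCT116 arrays and leaving out arrays. Setting doxycycline arrays in place of vehicle arrays was added after seeing the data.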

Additional observations from a re-analysis of the deposited data

Results flagged for a closer look

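The effects of the recombined lines against HCT116 vehicle differed between Hke3 and Hkh-2 in 5 of the 7 tested core probe sets, tested with limma as Hke3 minus Hkh-2, in which the HCT116 arrays cancel. The difference was -1.29 for MAP2K2 213490_s_at (adjusted p = 0.00638), -1.06 for MAP2K2 202424_at (adjusted p = 0.00972), -0.70 for HRAS (adjusted p = 0.0478) and -0.52 for ARAF 201895_at (adjusted p = 0.0144), all lower in Hke3. It was 0.78 for ARAF 230652_at (adjusted p = 0.000122), higher in Hke3. This probe set passed the level filter only through Hke3, and with group means under 6 counted as 6 its difference was 0.72. Of all probe sets tested, 36% passed in this comparison. Each line is 1 clone, so the difference between lines and the difference between clones cannot be told apart.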

How the results depend on the processing

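No result changed direction while called. The number of member probe sets called for HCT116 vehicle minus Hke3, 1 over all arrays, was 0 with a group mean of at least 7, 2 with array weights, 3 without both arrays that stood apart and 1 to 4 over leaving out single arrays, with 4 without Hke3 replicate 3. For HCT116 vehicle minus Hkh-2 it was 2, and 4 with array weights, 4 without both arrays, 4 with doxycycline arrays as HCT116 (1 of them, ARAF 230652_at, with both means under 6), 1 without probe sets named _x_at or _s_at, 0 at an adjusted p under 0.01 and 1 to 4 over single arrays, with 4 without vehicle replicate 2 or Hke3 replicate 3 and 1 without vehicle replicate 1, vehicle replicate 3 or Hkh-2 replicate 2. For Hke3 minus Hkh-2 it was 5, and 3 at an adjusted p under 0.01 and 3 to 6 over single arrays, with 3 without Hke3 replicate 1, Hke3 replicate 2 or Hkh-2 replicate 2. For doxycycline minus vehicle it was 0 under every alternative run. Because the fit shares its estimate of spread among the 4 groups, leaving out an array of a group outside the comparison can change a call while the difference stays the same. For MAP2K2 202424_at in HCT116 vehicle minus Hkh-2, the SE went from 0.276 to 0.214 without Hke3 replicate 3, and the difference stayed at -0.727. Apart from this and from settings that test fewer probe sets or arrays, the cause was not tested.

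Over all probe sets, 12244 were called for HCT116 vehicle minus Hke3, against 6146 with 1 probe set per gene and 7186 without _x_at and _s_at probe sets, both of which test fewer probe sets. For HCT116 vehicle minus Hkh-2 the 9739 became 4627 and 5693 under these settings. For Hke3 minus Hkh-2 the 9836 became 5118 and 5853, 14962 with array weights and 6075 at an adjusted p under 0.01. Of the wider pathway, the 38 genes called for HCT116 vehicle minus Hke3 became 24 without _x_at and _s_at probe sets. Under that setting the 31 for HCT116 vehicle minus Hkh-2 became 20, against 51 with array weights. The 34 for Hke3 minus Hkh-2 became 20 as well, 52 with array weights and 20 at an adjusted p under 0.01.

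With the replicate number as a block, the member counts were 1 for HCT116 vehicle minus Hke3, 2 for HCT116 vehicle minus Hkh-2, 4 for Hke3 minus Hkh-2, where HRAS lost its call (adjusted p = 0.0686), and 0 for doxycycline minus vehicle, and the block changed no other member's call. Of the 12 arrays, 4 correlated best with an array of their own number. HRAS in Hke3 minus Hkh-2 also lost its call without the filter on dim probe sets (0.059), with cyclic loess (0.0683) and with the compared groups alone (0.0609). MAP2K2 202424_at in HCT116 vehicle minus Hkh-2 gained one with each array's median subtracted (0.044), with the compared groups alone (0.0465), with a robust trended prior (0.0494), with array weights (8.66e-05) and with vehicle and doxycycline arrays pooled as HCT116 (0.011). With array weights HRAS also gained calls in HCT116 vehicle minus Hke3 (0.0334) and HCT116 vehicle minus Hkh-2 (0.00139), and MAPK3 gained one in Hke3 minus Hkh-2 (0.0133). Array signal near background limits ARAF 230652_at and MAP2K2 213487_at.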
